A study of Mus musculus with 7 samples.

Results

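The Toll-like receptors Tlr1 to Tlr9 and Myd88, the adaptor that most of them signal through, were examined in lungs of mice with a Gata5 deletion (KO) and of wild-type (WT) mice. The list was chosen by the rise of Tlr1 in KO against WT arrays, and the question was whether its partners, Tlr2 and Tlr6 first, moved with it. It holds 10 of the 18193 genes that a probe set of the table named alone, and 16 of 45037 probe sets that are not controls. Tlr4 had 4 probe sets, Tlr7 had 3, Tlr3 had 2 and the other 7 genes had 1 each. Left lungs of 3 KO and 4 WT mice, 8 weeks old, gave 1 Affymetrix expression array each, and the labels call the mice of a group biological replicates. In KO mice the gene of the transcription factor Gata5, a GATA-family zinc-finger protein, was deleted, and WT mice carried no deletion. The sources used here give no strain, no sex and no design of the allele. Because Tlr1 chose the list, its KO and WT values are given as a description without a test.

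Toll-like receptors are membrane proteins of macrophages, dendritic cells, neutrophils, B cells and epithelium that bind molecules of microbes. Tlr1, Tlr2, Tlr4, Tlr5 and Tlr6 sit at the cell surface, whereas Tlr3, Tlr7, Tlr8 and Tlr9 sit in endosomes and bind nucleic acids. Tlr2 acts as a dimer, with Tlr1 for triacylated and with Tlr6 for diacylated bacterial lipopeptides. A bound receptor recruits Myd88 through TIR domains, and Myd88 gathers Irak kinases and the ubiquitin ligase Traf6, which activate NF-kB. Tlr3 signals through another adaptor, Ticam1, and Tlr4 through both.

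Values are log2 levels, so a difference of 1 is a doubling of signal. Levels of different probe sets depend on their probes, and only levels of 1 probe set were compared. The median level per array lay between 6.12 and 6.15 on KO and between 6.10 and 6.11 on WT arrays. The beta-actin control, whose 3′ and 5′ probe sets report on RNA integrity and labelling, had a 3′ minus 5′ difference of 4.74 to 5.39 on KO and 3.88 to 4.31 on WT arrays. For Gapdh the 3′ minus middle difference was 3.85 to 4.31 on KO and 3.33 to 3.68 on WT arrays. These differences did not overlap between the groups, so a fit that carries either as a covariate cannot tell it apart from genotype. Such fits are given below as a description, and the part of the control differences in the values was not tested. Gata5 itself averaged 4.95 ± 0.22 (SD, n = 3) on KO and 5.54 ± 0.22 (SD, n = 4) on WT arrays at 1450126_at (limma adjusted p = 0.0336 in the fit on all probe sets, since it lies under the level filter). Its other probe set, 1450125_at, had a change of -0.26 that did not pass (limma adjusted p = 0.0993). Xist stood at 3.66 to 3.87 on KO arrays, at 3.66 to 3.89 on WT replicates 1 to 3, and at 11.51 on WT replicate 4, so that mouse was female by this transcript. The lung epithelium list was bright in both groups, with Scgb1a1, the club cell secretoglobin, at 14.47 to 14.61 on KO and 14.45 to 14.52 on WT arrays.

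Tlr1 was higher in KO lungs, whereas its dimer partners Tlr2 and Tlr6 did not pass the test. The level of Tlr1 at probe set 1449049_at was 7.41, 7.39 and 6.84 on KO replicates 1 to 3, against 6.57, 5.68, 6.19 and 6.56 on WT replicates 1 to 4. All 3 KO arrays lay above all 4 WT arrays, with KO replicate 3 the lowest of its group and WT replicate 2 far below the others. KO lungs averaged 7.21 ± 0.32 (SD, n = 3) and WT lungs 6.25 ± 0.42 (SD, n = 4), a log2 change of 0.96 or 1.95-fold. The change lay between 0.77 and 1.15 when any 1 array was left out, the lowest value being that without WT replicate 2. A fit that carried the beta-actin difference as a covariate gave 0.47, and one with the Gapdh difference gave 0.72.

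Tlr2, the receptor that both lipopeptide dimers share, did not pass. Its level at 1419132_at was 7.50, 7.60 and 7.10 on KO arrays, against 7.45, 7.45, 7.44 and 7.83 on WT arrays. The groups overlapped, and KO replicate 3 and WT replicate 4 were the arrays away from the rest. The log2 change was -0.14 (95% interval -0.46 to 0.18, limma adjusted p = 0.485). Without KO replicate 3 it was 0.0075.

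Tlr6 lies next to Tlr1 on its chromosome and was dim. Its level at 1421352_at was 5.31, 5.22 and 5.08 on KO arrays, against 5.15, 5.18, 4.99 and 5.0 on WT arrays, and the groups overlapped. Its mean lay under the level filter of 5.47, so it was tested in the fit on all probe sets, where the log2 change was 0.12 (95% interval -0.05 to 0.30, limma adjusted p = 0.314). The change was 0.07 without KO replicate 1 and 0.038 with only the 5 mice of lowest number in the labels, and a dim probe set can understate a change. The difference between Tlr1 and its partners was not tested, because Tlr1 was picked for its size.

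**Figure D1:**
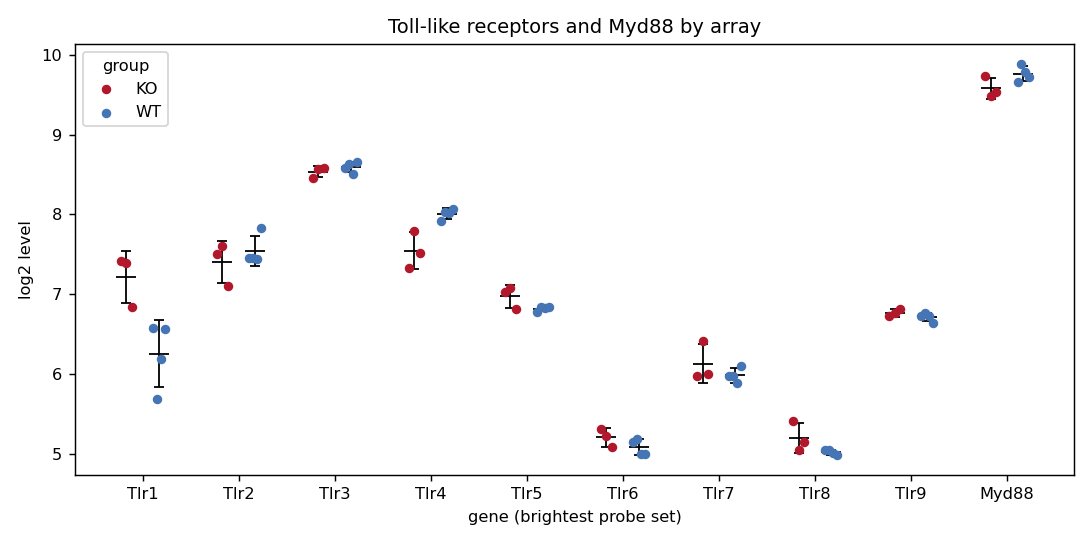
Log2 level of the brightest probe set of each gene on every array, with KO left of WT in each pair. Points are arrays (3 KO, 4 WT), bars are the mean and SD. The 3 KO points of Tlr1 lie above its 4 WT points, those of Tlr4 lie below, and the groups of Tlr2 and Tlr6 overlap.

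The annotation places Tlr1 at chr5:64924680-64933600 and Tlr6 at chr5:64953092-64970942 of GRCm38.p6, both on the minus strand and 19491 bases apart, and Tlr2 at chr3:83836272-83841824. The 250 bases before each annotated start of the trio are shown because the question turns on this trio and the deleted gene encodes a GATA factor. They are RefSeq sequences of GRCm38.p6, written 5′ to 3′ along the gene, and capitals mark the GATA motif, searched on both strands as GATA with A or T before it and A or G after it. Tlr1 and Tlr6 each have 2 listed starts, and all 5 starts lie inside the annotated span of their gene.
Tlr1, chr5:64933559-64933808, minus strand: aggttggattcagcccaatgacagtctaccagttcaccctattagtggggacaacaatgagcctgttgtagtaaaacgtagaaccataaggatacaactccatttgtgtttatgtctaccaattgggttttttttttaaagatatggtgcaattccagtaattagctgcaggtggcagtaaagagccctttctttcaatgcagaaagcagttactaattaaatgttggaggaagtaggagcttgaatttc
Tlr1, chr5:64932700-64932949, minus strand: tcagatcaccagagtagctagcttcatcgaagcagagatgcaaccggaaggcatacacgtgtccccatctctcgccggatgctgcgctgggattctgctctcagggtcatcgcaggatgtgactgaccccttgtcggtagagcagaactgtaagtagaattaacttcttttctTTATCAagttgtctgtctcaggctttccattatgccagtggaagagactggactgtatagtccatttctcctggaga
Tlr2, chr3:83841609-83841858, minus strand: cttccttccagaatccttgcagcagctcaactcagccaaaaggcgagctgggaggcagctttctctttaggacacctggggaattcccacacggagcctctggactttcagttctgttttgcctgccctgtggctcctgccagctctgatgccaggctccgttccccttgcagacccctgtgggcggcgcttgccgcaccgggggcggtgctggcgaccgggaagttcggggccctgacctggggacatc
Tlr6, chr5:64959167-64959416, minus strand: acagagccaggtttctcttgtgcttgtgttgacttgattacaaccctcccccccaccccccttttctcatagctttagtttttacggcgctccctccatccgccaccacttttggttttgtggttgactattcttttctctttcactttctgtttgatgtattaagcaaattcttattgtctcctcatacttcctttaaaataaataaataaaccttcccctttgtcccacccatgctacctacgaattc
Tlr6, chr5:64960049-64960298, minus strand: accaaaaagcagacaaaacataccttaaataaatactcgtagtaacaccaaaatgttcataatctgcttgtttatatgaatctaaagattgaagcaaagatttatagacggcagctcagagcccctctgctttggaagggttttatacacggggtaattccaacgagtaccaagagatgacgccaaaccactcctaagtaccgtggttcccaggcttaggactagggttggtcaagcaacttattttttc
The second window of Tlr1 holds TTATCA, a match on the other strand, with its first base 77 bases before the start, and the other 4 windows hold no match to these letters. The table had windows for 8 members, 10 windows in all, of which 4 held a match, those of Tlr1, Tlr3, Tlr5 and Tlr9. Of all 32851 windows of this length in the table, 26.5% held one. A match is a description of letters, and binding was not measured here.

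Among the other surface receptors, Tlr4 was lower in KO lungs at its brightest probe set and Tlr5 did not pass. Tlr4, the receptor for bacterial lipopolysaccharide, had 7.33, 7.79 and 7.51 at 1418162_at on KO arrays, against 7.92, 8.03, 8.02 and 8.07 on WT arrays. Every KO array lay under every WT array, and KO replicate 2 came closest to them. KO lungs averaged 7.54 ± 0.23 (SD, n = 3) and WT lungs 8.01 ± 0.06 (SD, n = 4), a log2 change of -0.47 or 1.38-fold lower (95% interval -0.70 to -0.23, limma adjusted p = 0.0234).

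The other probe sets of Tlr4 did not pass. At 1418163_at, designed on the same transcript record, KO arrays had 6.93, 6.78 and 6.95, against 6.90, 6.93, 7.10 and 6.86 on WT arrays, with overlap (log2 change -0.06, limma adjusted p = 0.604). The dim 1442827_at and 1430695_at had changes of -0.20 and 0.08 (limma adjusted p = 0.194 and 0.546), the last of which was -0.0125 without KO replicate 3. Averaged over the 4 probe sets, the change of Tlr4 was -0.16 (limma adjusted p = 0.0574). At 1418162_at Tlr4 no longer passed without KO replicate 3, WT replicate 3 or WT replicate 4 (adjusted p = 0.0684, 0.0546 and 0.0636). With the beta-actin and the Gapdh differences as covariates the change was -0.73 and -0.79 (adjusted p = 0.218 and 0.114).

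Tlr5, the flagellin receptor, had 7.03, 7.08 and 6.81 on KO arrays, against 6.77, 6.84, 6.82 and 6.84 on WT arrays at 1450242_at. KO replicates 1 and 2 lay above all WT arrays and KO replicate 3 among them. The log2 change of 0.16 did not pass (95% interval -0.02 to 0.33, limma adjusted p = 0.175).

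Among the endosomal receptors 1 probe set passed, the dimmer of the pair for Tlr3, and the brightest probe set of each gene did not. Tlr3, which binds long RNA duplexes of viruses, had 8.46, 8.57 and 8.58 on KO arrays at its brightest probe set, 1422782_s_at, against 8.58, 8.63, 8.51 and 8.65 on WT arrays. These overlapped, with a log2 change of -0.06 (95% interval -0.20 to 0.09, limma adjusted p = 0.542), and a further quantile normalization turned its sign (0.02). The much dimmer 1422781_at, designed on the same record, had 5.30, 5.61 and 5.23 on KO arrays, against 5.95, 5.99, 5.80 and 6.17 on WT arrays. There the groups did not overlap, with KO 1.51-fold lower (log2 change -0.60, 95% interval -0.85 to -0.34, limma adjusted p = 0.0170 in the fit on all probe sets). That call was lost without KO replicate 1 or KO replicate 3 (adjusted p = 0.0503 and 0.0601) and with either control difference as a covariate (changes -0.76 and -0.79, adjusted p = 0.200 and 0.157). The mean of both probe sets changed by -0.33 (limma adjusted p = 0.0297). The sources used here do not place the probe sets on the transcript.

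Tlr7, an X-linked receptor for viral RNA, had 5.97, 6.41 and 6.0 on KO arrays at 1422010_at, against 5.97, 5.97, 5.88 and 6.10 on WT arrays. Only KO replicate 2 stood away from the rest, and the log2 change was 0.15 (95% interval -0.11 to 0.40, limma adjusted p = 0.369), with a sign that both control differences as covariates turned (-0.15 and -0.14). Without KO replicate 2 it was 0.005. The dim 1419848_x_at, of a class of probe sets whose probes can match other transcripts, had 5.12, 4.85 and 4.74 on KO arrays, against 4.56, 4.56, 4.35 and 4.62 on WT arrays. These groups did not overlap, and the change of 0.38 did not pass (limma adjusted p = 0.0514). At 1449640_at, also dim, it was 0.10 (limma adjusted p = 0.291).

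Tlr8, a paralog of Tlr7 that is also X-linked, lay under the level filter, with 5.41, 5.04 and 5.15 on KO arrays, against 5.04, 5.04, 5.01 and 4.98 on WT arrays. KO replicate 1 was the highest, KO replicate 2 tied with WT arrays, and the change of 0.18 did not pass (95% interval -0.01 to 0.38, limma adjusted p = 0.194). Without KO replicate 1 it was 0.0775. WT replicate 4, the array with high Xist, was the highest WT array for Tlr7 at 1422010_at and the lowest for Tlr8. Tlr9, a receptor for unmethylated CpG DNA, had 6.72, 6.76 and 6.81 on KO arrays, against 6.72, 6.76, 6.72 and 6.64 on WT arrays. The log2 change was 0.05 with a narrow interval (-0.08 to 0.19, limma adjusted p = 0.526).

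Myd88 did not pass. It had 9.73, 9.48 and 9.53 on KO arrays, against 9.66, 9.89, 9.79 and 9.72 on WT arrays at 1419272_at. KO replicates 2 and 3 lay below all WT arrays, and KO replicate 1 among them. The log2 change was -0.19 (95% interval -0.38 to 0.01, limma adjusted p = 0.153), and 0.03 with the beta-actin covariate.

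**Figure D2:**
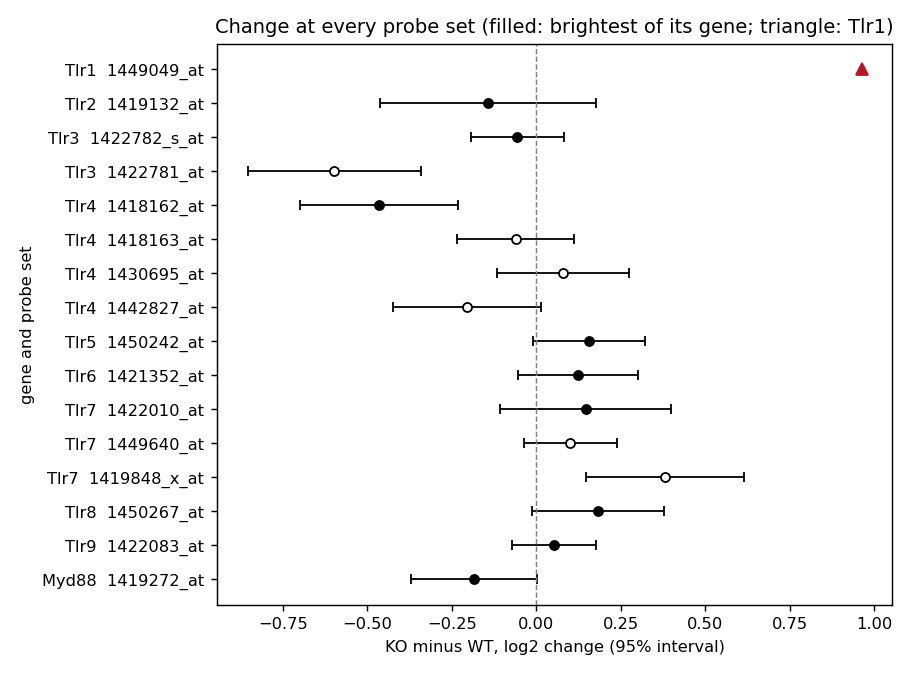
Log2 change, KO minus WT, at each of the 16 probe sets, with 95% intervals from the limma fit on all probe sets. Filled points are the brightest probe set of a gene, open points the others, and the triangle is Tlr1, drawn without an interval because it chose the list. Intervals lie wholly below 0 for 1418162_at of Tlr4 and 1422781_at of Tlr3 and wholly above 0 for 1419848_x_at of Tlr7.

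Of the 9 genes other than Tlr1, 7 passed the level filter and were tested in the fit on genes. Among them 1 was lower (Tlr4), 0 were higher and 6 did not pass. Over all 13285 genes tested, 15.6% passed, 5.56% higher and 10.0% lower in KO. The median log2 change of these 7 genes was -0.06, against -0.0033 over all genes tested. In the fit on all probe sets, 1418162_at of Tlr4 and 1422781_at of Tlr3 passed among the probe sets of the other 9 genes, against 9.89% of all probe sets. Besides Tlr1, groups did not overlap at 1419848_x_at of Tlr7, which was higher, and at those of Tlr4 and Tlr3, which were lower, against 23.4% of all probe sets and 29.6% of genes tested. Since Tlr1 chose the list in this contrast, nothing is read from these counts beyond the values of each gene.

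The genes whose pattern was most like that of Tlr1 were sought among all genes tested, by Pearson's r over the 7 arrays. The highest were Grk6, a G protein-coupled receptor kinase (r = 0.992), Lrmp, an endoplasmic reticulum membrane protein of lymphoid cells (0.988), Kif21b, a kinesin (0.987), Acap1, an Arf GTPase-activating protein (0.984), and Tmcc1 (0.978). Like Tlr1, these had WT replicate 2 as their lowest array and KO replicate 3 as the lowest KO array. They were picked for following Tlr1 over these arrays, so the shared order comes with the pick. Acap1 had 9.64, 9.44 and 9.11 on KO arrays, against 8.70, 8.14, 8.39 and 8.88 on WT arrays, and Lrmp 6.83, 6.90 and 6.34, against 6.31, 5.72, 6.03 and 6.34. The lowest were Tnpo1 (-0.982), Ide (-0.980), Nacc2 (-0.978), Cyth4 (-0.977) and Igfbp5 (-0.977). All arrays enter each r, the difference between the groups included, so these are a description. Among the members, r with Tlr1 was 0.06 for Tlr2, 0.50 for Tlr6, 0.73 for Tlr5, -0.73 for Tlr4 and -0.74 for Myd88.

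Markers of the cells that carry these receptors were read beside them. In whole lung, fewer cells of a type and less RNA per cell cannot be told apart. Of the 10 cell lists read, 3 had their lowest KO and their lowest WT sum on the same arrays as Tlr1, KO replicate 3 and WT replicate 2: those of B cells, dendritic cells and endothelial cells. KO replicate 3 had the lowest sum of all 7 arrays in 7 of the 10 lists. The log2 of the summed linear levels of 7 B cell genes was 11.41, 10.98 and 10.40 on KO replicates 1 to 3, against 10.62, 10.00, 10.38 and 10.84 on WT replicates 1 to 4. The KO and WT sums of this list overlapped.

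Of the 6 B cell genes tested, 0 passed with limma (2 at unadjusted p under 0.05), and all 6 changes were above 0, with a median of 0.33. Among all 13285 genes tested, 15.6% passed and 6531 changes were above 0. In a limma fit that let the variance follow the level, 4606 of the 13285 had an unadjusted p under 0.05. Cd22, a B cell inhibitory receptor, had 9.83, 9.69 and 9.21 on KO arrays, against 9.19, 8.69, 8.78 and 9.19 on WT arrays, without overlap (log2 change 0.61, limma adjusted p = 0.0503). Ms4a1, the B cell antigen CD20, had 9.51, 9.01 and 7.51 on KO arrays, against 8.50, 7.53, 8.35 and 8.93 on WT arrays, with overlap. With the summed level of the B cell list as a covariate, which was added once the data had been seen and is a description for Tlr1, the log2 change of Tlr1 was 0.58 in place of 0.96. The B cell sum itself averaged 10.93 on KO and 10.46 on WT arrays, and the part of B cells in the change of Tlr1 was not tested. The dendritic cell and endothelial sums were not fitted in this way. The B cell fit gave -0.33 for Tlr2 (limma adjusted p = 0.0985), 0.09 for Tlr6, -0.18 for Myd88 and -0.43 for Tlr4 at 1418162_at (limma adjusted p = 0.0550).

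**Figure D3:**
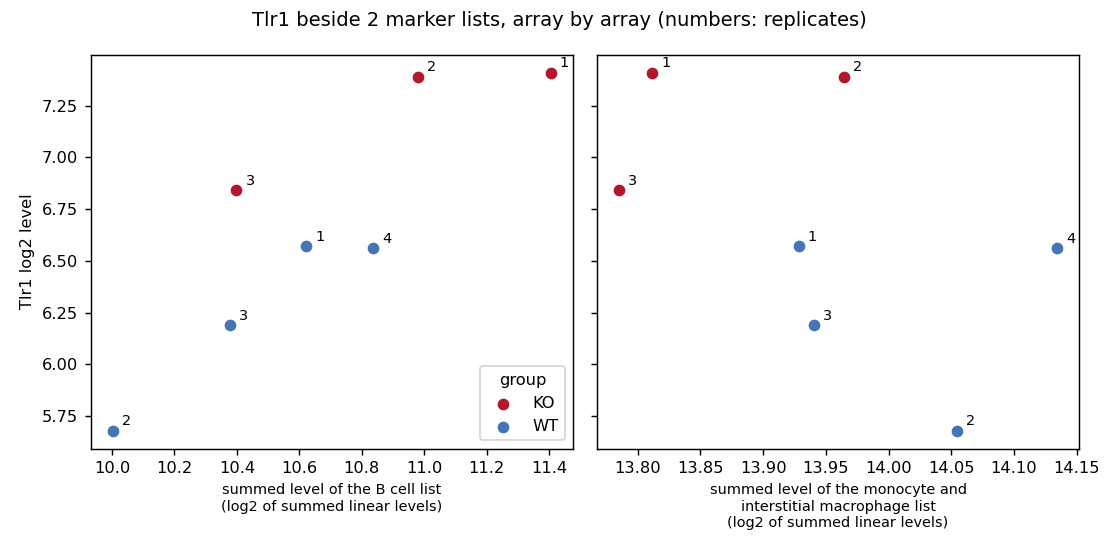
Tlr1 log2 level (vertical axis) on each array against the summed level of the B cell list (left) and of the monocyte and interstitial macrophage list (right), both as log2 of summed linear levels. Points are arrays, numbered by replicate within KO and WT. KO replicate 3 and WT replicate 2 are the lowest of their groups for Tlr1 and for the B cell list, as they also are for the dendritic cell and endothelial lists, which are not drawn.

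Genes of other cell lists, here and in the next paragraph, passed in both directions. Over all 13285 genes tested, 5.56% passed as higher and 10.0% as lower in KO, and 6531 changes were above and 6754 below 0. With the variance following the level, 4606 of them had an unadjusted limma p under 0.05. Of 8 alveolar macrophage genes, 1 fell, Plet1 (log2 change -0.50, limma adjusted p = 0.0195), and all 8 changes were below 0. The brightest, Chil3 and Car4, had -0.21 and -0.26 and did not pass. The list's summed level was 13.51 to 13.89 on KO and 13.83 to 14.10 on WT arrays. Of 9 tested genes of monocytes and interstitial macrophages, Lyz2, lysozyme (-0.43), and C1qc, a complement subunit (-0.55), fell and Csf1r, the receptor for macrophage colony-stimulating factor (0.33), rose, with summed levels of 13.79 to 13.96 on KO and 13.93 to 14.13 on WT arrays. Of 7 dendritic cell genes, Zbtb46 (-0.62) and Cd209a (-0.44) fell and Itgax (-0.19) did not pass, and the summed level was 10.55 to 10.62 on KO and 10.78 to 10.98 on WT arrays, without overlap. The part of any cell type in these values was not tested.

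In the neutrophil list 0 of 8 genes passed with limma (2 at unadjusted p under 0.05), with S100a8 at 0.11, S100a9 at -0.10 and Ltf at 0.67, and the summed level overlapped, at 11.85 to 13.03 on KO and 11.94 to 13.15 on WT arrays. Of 8 T and natural killer cell genes 0 passed (1 at unadjusted p under 0.05), with Gzma at 0.05, Klrd1 at 0.36 and Cd4 at 0.20, and summed levels of 10.19 to 11.09 on KO and 10.25 to 10.83 on WT arrays. Of 7 general leukocyte genes 0 passed (0 at unadjusted p under 0.05), with Laptm5 at 0.10, Ptprc at 0.09 and Vav1 at 0.20, and summed levels of 13.02 to 13.58 on KO and 13.18 to 13.44 on WT arrays. Of 7 platelet genes 3 rose, Gp1bb (1.02), Ppbp (0.81) and Treml1, and 4 did not pass, Pf4 (0.55) among them, and summed levels of 11.83 to 12.15 on KO and 11.17 to 11.64 on WT arrays did not overlap. All 7 platelet changes were above 0, and all 7 had an unadjusted limma p under 0.05. Of 7 endothelial genes 3 fell, Pecam1 (-1.22), Tie1 and Nos3, while Cldn5 (-0.42) and Tek (-0.21) did not pass, with summed levels of 12.95 to 13.29 on KO and 13.28 to 13.61 on WT arrays. All 7 endothelial changes were below 0, and 4 had an unadjusted limma p under 0.05. Of 7 epithelial genes 0 passed with limma (1 at unadjusted p under 0.05), with Scgb1a1 at 0.06, Ager at -0.02 and Sftpb at -0.74, and summed levels of 15.97 to 16.03 on KO and 16.03 to 16.07 on WT arrays.

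In the rest of the pathway few genes passed the threshold. Of 97 further genes in 9 lists, 77 were tested, and 6 passed (7.79%), 2 higher and 4 lower in KO, against 15.6% of all genes tested. The median log2 change of the 77 was 0.04, and 25 of them had an unadjusted limma p under 0.05. A limma fit that let the variance follow the level had 26 pathway genes and 4606 of 13285 genes tested under 0.05 unadjusted. The balance moved with the scaling: 8 of 11 calls were higher after a further quantile normalization, and 1 of 7 when arrays were centred on their medians.

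Accessory proteins held the largest decreases that passed in these 9 lists. Of 9 genes that load, fold, process or move the receptors, 2 fell and 7 did not pass, with a median log2 change of -0.22. Lgmn, an endosomal endopeptidase that cleaves Tlr9, had 7.51, 7.16 and 7.13 on KO arrays, against 8.00, 8.09, 8.11 and 8.54 on WT arrays, 1.89-fold lower without overlap (limma adjusted p = 0.00850). Hsp90b1, the endoplasmic reticulum chaperone that folds most Toll-like receptors, had 11.58, 11.78 and 11.56 on KO arrays, against 12.14, 12.12, 12.10 and 12.22 on WT arrays (limma adjusted p = 0.00761), and its other probe set fell too, with a change of -0.94. Lgmn and Hsp90b1 passed whichever array was left out, and neither passed with the beta-actin or the Gapdh covariate (adjusted p between 0.114 and 0.336). The Tlr4 partners Ly96 and Cd14 had changes of 0.0017 and 0.09 (limma adjusted p = 0.993 and 0.613), with overlapping groups.

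Below the receptors, the calls went both ways. Of 14 kinases and ubiquitin enzymes tested, Irak1, the kinase that Myd88 recruits, rose at its brightest probe set, 1438120_x_at (log2 change 0.34, limma adjusted p = 0.00906), with 10.99, 11.05 and 11.01 on KO arrays, against 10.72, 10.63, 10.70 and 10.65 on WT arrays. Its probe set 1448668_a_at fell instead (-0.29, limma adjusted p = 0.0498 in the fit on all probe sets), while 1438857_x_at rose by 0.37 and 1460649_at, at 0.28, did not pass. Both probe sets of Irak1 that rose and passed are of the class whose probes can match other transcripts. Averaged over its probe sets, the change of Irak1 was 0.17 and did not pass (limma adjusted p = 0.0615). Ube2n, which builds ubiquitin chains with Traf6, fell (-0.39, limma adjusted p = 0.0102), and 3 came close to the threshold without passing, Traf6 at 0.26 (adjusted p = 0.0524), Tbk1 at 0.22 (0.0508) and Irak2 at -0.57 (0.0533).

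Of 13 inhibitors tested, Tollip fell (-0.26, limma adjusted p = 0.0335) and Nfkbie, which holds NF-kB in the cytoplasm, rose (0.46, adjusted p = 0.0475). Both calls were weak: Tollip passed only without WT replicate 3 and Nfkbie only without KO replicate 3 when 1 array was left out. The second probe set of Tollip had a change of 0.08 and that of Nfkbie 0.065, and neither passed (limma adjusted p = 0.455 and 0.741). Averaged over their probe sets, Tollip changed by -0.09 and Nfkbie by 0.26 (limma adjusted p = 0.203 and 0.167). None passed with limma among 3 other adaptors (0 at unadjusted p under 0.05, changes from -0.11 for Ticam1 to 0.06 for Tirap), 10 transcription factors (3, from -0.30 for Irf8 to 0.55 for Fos), 6 interleukin-1 receptor family genes (1, from -0.05 for Il1r2 to 0.36 for Il18rap), 6 other innate sensors (3, from -0.22 for Nod1 to 0.28 for Nlrp3), or Tlr12 and Tlr13 (0, changes 0.05 and -0.05). Beside these counts, 4606 of all 13285 genes tested had an unadjusted limma p under 0.05 with the variance following the level.

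Genes that Toll-like receptors induce did not pass. Of 14 tested, 0 passed with limma and 4 had an unadjusted p under 0.05, with 12 changes above 0 and a median of 0.14. Over all 13285 genes tested, 15.6% passed and 6531 changes were above 0, and 4606 had an unadjusted limma p under 0.05 with the variance following the level. Tnf had 6.82, 6.67 and 6.73 on KO arrays, against 6.67, 6.65, 6.63 and 6.52 on WT arrays (log2 change 0.12, limma adjusted p = 0.213). Il1b had 8.09, 8.43 and 7.76 on KO arrays, against 7.85, 7.83, 7.53 and 7.86 on WT arrays (0.33, adjusted p = 0.166). Tnf and Il1b both overlapped between the groups. The 4 genes at unadjusted p under 0.05 were Nfkbiz, Ptgs2, Ccl4 and Vcam1. Nfkbiz had 10.22, 10.69 and 10.20 on KO arrays, against 9.94, 10.08, 9.95 and 9.94 on WT arrays, without overlap (0.39, limma adjusted p = 0.0569). Ptgs2 (0.43), Ccl4 (0.28) and Vcam1 (-0.38) overlapped (limma adjusted p = 0.102, 0.136 and 0.0516). The other 8 genes of that list, Il6, Il10 and Il12b among them, lay under the level filter.

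**Figure D4:**
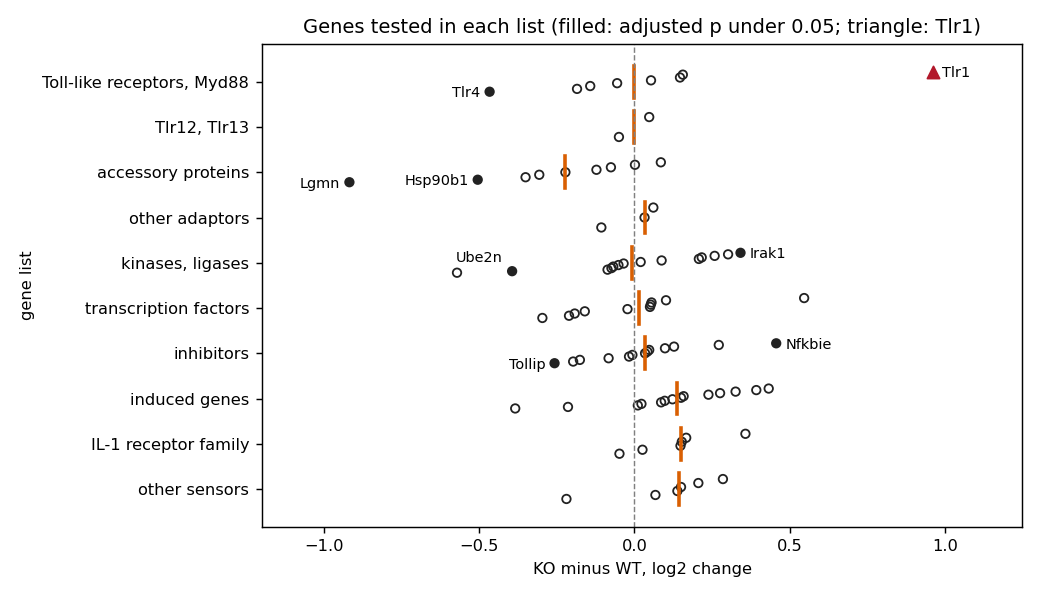
Log2 change, KO minus WT, of every gene tested in the 10 lists, 1 point a gene. Filled points passed at adjusted p under 0.05, open points did not, the triangle is Tlr1 and the vertical bar is the median of a list, Tlr1 included. The filled points lie on both sides of 0, and Tlr1 is farther right than any other gene shown.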

How the data were processed

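Values are log2 levels deposited by the authors for 45101 probe sets on 7 arrays, and were used as given, to 2 decimals. Per the submitters' processing notes, Affymetrix Expression Console, RMA and MAS5 were used, in roles the notes do not state, and the log base was read from the range. After 64 controls were set aside, 45037 probe sets remained: 34945 had 1 gene in the platform annotation, 932 had several and 9160 had none. RefSeq (GRCm38.p6) updated the names of 34741 through their gene identifiers.

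A fit on genes and a fit on all probe sets compared KO with WT by lmFit and eBayes in limma 3.58.1 (R 4.3.3), genotype being the only term, with Benjamini-Hochberg adjustment and a threshold of 0.05. The fit on genes took the brightest probe set of each of 18193 genes and kept 13285 whose mean reached the 40th percentile of all probe sets (log2 5.47), leaving out 4908. The fit on all probe sets had no filter. Adjusted p and intervals come from the fit on genes, and for Tlr6, Tlr8 and probe sets that are not the brightest of their gene from the fit on all probe sets. Arrays give no counting depth, so their number limits the precision. Fits were checked on simulated arrays. Figures used matplotlib 3.10.9 (Python 3.11.15).

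Members and lists were chosen with earlier results of these data known. Named genes were the members, pathway genes past the threshold, Tlr12 and Tlr13, the brightest 2 and the smallest p of each cell list, and the genes most and least like Tlr1; other pathway genes were named after their values were seen. Of 97 pathway genes 87 had a probe set. Alternatives are listed in the closing section.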

Additional observations from a re-analysis of the deposited data

Results flagged for a closer look

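Among the 4 WT arrays, 24 sets of values were searched for an array far from the other 3, and 5 had one, where chance gives about 1 in 20. Tlr2 was 7.83 on WT replicate 4, against 7.44 to 7.45 on the other WT arrays, and without that array its log2 change was -0.05 in place of -0.14. Tlr12 at 1438329_at was 5.42 on WT replicate 1, against 5.49 on each of the others. Xist on WT replicate 4 was 12.72, 11.51 and 5.57 at its 3 probe sets, against at most 6.44, 3.89 and 3.95 on the other WT arrays. Groups of 3 arrays, the KO group, were not searched.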

How the results depend on the processing

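Alternatives gave 392 log2 changes of members and called pathway genes, of which only those that passed in the main fits could lose the threshold. Besides Tlr1, Tlr4 at 1418162_at passed in 9 of 19 settings, Tlr3 at 1422781_at in 11 of 16 and Tollip in 5 of 19. Nfkbie passed in 4 of 19, Irak1 in 14, Ube2n in 15, and Hsp90b1 and Lgmn in 16 each. Of the 392, 317 kept their sign and side of the threshold, 66 lost the threshold, 2 gained it and 7 changed sign. The 7 were Tlr2 without KO replicate 3 (0.0075, the highest of -0.2425 to 0.0075 with 1 array left out), Tlr3 at 1422782_s_at after a further quantile normalization (0.024), Tlr4 at 1418163_at with the beta-actin covariate (0.0096) and at 1430695_at without KO replicate 3 (-0.0125, the lowest of -0.0125 to 0.1425), Tlr7 at 1422010_at with the beta-actin and Gapdh covariates (-0.15 and -0.14), and Myd88 with the beta-actin covariate (0.029). Genes called numbered 2069, against 371 with the replicate block, 0 with the beta-actin covariate (2204 at unadjusted p under 0.05), 5 with Gapdh, 0 with only the 5 mice of lowest number in the labels (2797) and 902 with Xist, and 884 to 1975 with 1 array left out, with over 1.5 times fewer when the array left out was KO replicate 3 (1109) or, among WT arrays, replicate 1 (1011), 3 (1101) or 4 (884). Probe sets called numbered 4456, against 1322, 0 (7989), 13, 0 (8007) and 2018 in the same order, and 1974 to 4251 with 1 array left out. Members called, Tlr1 included, numbered 2, against 1 with the stricter filter, which removed Tlr1, 0 with the replicate block (2), beta-actin (1), Gapdh (1) and lowest mouse numbers (2), 1 with Xist, 1 with the B cell covariate, and 0 to 2 with 1 array left out. Without Tlr1, which chose the list in the main contrast, the count was 1, against 1 with the stricter filter, 0 under each other setting just named, and 0 to 1 with 1 array left out. Pathway genes called numbered 6, against 11 after quantile normalization, 10 with the stricter filter, 2 with the block, 0 with beta-actin (7), Gapdh (11) and lowest mouse numbers (10), 11 with the B cell covariate, and 4 to 7 with 1 array left out. The cause of these differences was not tested, except that the lowest mouse numbers leave fewer arrays. In the replicate block, WT replicate 4 had a block of its own and so added nothing to the KO minus WT change. For Tlr2 that change was -0.05 with the block and -0.05 without WT replicate 4. The share of called genes that were higher was 35.7%, against 57.1% after quantile normalization and 24.6% after centring. Same-numbered KO and WT arrays had correlations of 0.0033, -0.042 and 0.035, so the numbers were not taken to pair the mice.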
